A study of Mus musculus with 36 samples.

Results

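The calcitonin gene-related peptide (CGRP) and adrenomedullin system was followed through 9 genes, which are the entries of the deposited count table with the symbols Calca, Calcb, Adm, Adm2, Calcrl, Calcr, Ramp1, Ramp2 and Ramp3. The table holds 49568 gene symbols, and the genes were taken from it by symbol, with no threshold on a value. All 9 genes passed the filter on low counts and were among the 18628 genes tested. Each library was the ligated left carotid artery of 1 mouse, taken on day 14. Tying off the artery stops its flow, and the wall then remodels. The mice were C57BL/6J (B6, with C57BL/6 as the strain tag) or 129X1/SvJ (129X1). They were given vehicle at 2 mL/kg/day, the angiotensin receptor blocker valsartan (Val) at 27 mg/kg/day, or sacubitril/valsartan (Sac/val) at 60 mg/kg/day. Sacubitril adds inhibition of neprilysin, a peptidase encoded by Mme that cleaves CGRP and adrenomedullin among other peptides. Dosing was prophylactic, for 16 days from 2 days ahead of ligation, or therapeutic, for 7 days from day 7. The 2 strains, 2 regimens and 3 treatments made 12 groups of 3 mice, and a stratum here means the mice of 1 strain on 1 regimen. Every group was ligated, vehicle included, and no unligated artery was analysed here.

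Calca gives rise by alternative splicing to calcitonin, the calcium-lowering hormone of thyroid C cells, or to alpha-CGRP, a vasodilator released by sensory nerves, and Calcb encodes beta-CGRP. Adm encodes adrenomedullin, a vasodilator made by endothelium and smooth muscle, and Adm2 encodes the related peptide intermedin. These peptides share the receptor Calcrl, which needs a receptor activity modifying protein (Ramp) to reach the cell surface: with Ramp1 it binds CGRP, and with Ramp2 or Ramp3 it binds adrenomedullin. Calcr is the calcitonin receptor, and it too pairs with Ramps. In blood and lymphatic vessels adrenomedullin signalling through Calcrl and Ramp2 is known for its part in barrier function and vessel growth.

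The coding sequences of 4 mature peptides are shown first, because the counts were summed per gene symbol, so that alpha-CGRP and calcitonin share 1 value, and because alpha-CGRP and beta-CGRP are near copies. They are from GENCODE M21 transcripts on GRCm38, and each lies within 1 coding exon. Alpha-CGRP lies in exon 4 of 5 of Calca-201 (chr7:114632470-114632580, minus strand) and calcitonin in exon 4 of 4 of Calca-202 (chr7:114633665-114633760, minus strand). Beta-CGRP lies in exon 4 of 5 of Calcb-201 (chr7:114721994-114722104, plus strand) and adrenomedullin in exon 4 of 4 of Adm-201 (chr7:110628896-110629045, plus strand). Capitals in beta-CGRP mark the 5 bases that differ from alpha-CGRP.
alpha-CGRP: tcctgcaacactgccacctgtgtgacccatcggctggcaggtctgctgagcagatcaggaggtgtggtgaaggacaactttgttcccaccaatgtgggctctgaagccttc
beta-CGRP: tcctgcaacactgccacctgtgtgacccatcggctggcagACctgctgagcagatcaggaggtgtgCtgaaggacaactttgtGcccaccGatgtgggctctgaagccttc
calcitonin: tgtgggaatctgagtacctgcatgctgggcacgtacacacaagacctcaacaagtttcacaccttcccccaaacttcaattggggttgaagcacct
adrenomedullin: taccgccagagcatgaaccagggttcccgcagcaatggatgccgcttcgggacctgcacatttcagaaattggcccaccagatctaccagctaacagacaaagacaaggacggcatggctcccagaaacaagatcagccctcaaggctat

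The CGRP sequences were identical at 106 of 111 bases (95.5%), and 3 of the 37 encoded residues differed. The longest run of bases shared by the whole transcripts Calca-201 and Calcb-201 was 60, with 11 shared stretches of 50 bases. Calca-202, the calcitonin form, shared no run longer than 13 bases with Calcb-201. Reads from the shared stretch could be credited to either gene, so low Calcb values beside high Calca values are uncertain. Of the receptor genes, Ramp2 shares 1103 exon bases with Vps25 on the same strand, and Ramp3 shares 101 with the pseudogene Gm11978 on the opposite strand. Reads in those parts cannot be assigned with certainty here, since whether reads were counted by strand is not given in the sources used here.

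Total counts per library ran from 18962081 to 28967579. At these depths 3 counts, the limit that a count of 0 allows, correspond to 0.103 to 0.172 CPM (counts per 1e6 counts of the TMM-scaled library), a limit that covers counting error only. Arterial markers were present in every library, with the smooth muscle myosin Myh11 at 40.5 to 673 CPM and the endothelial Pecam1 at 155 to 273 CPM. Markers of neighbouring organs were present too, at levels that differed between mice of 1 group. Thyroglobulin (Tg, thyroid follicle) was at or above 100 CPM in 7 libraries, parathyroid hormone (Pth) in 19 and the thymocyte recombinase Rag1 in 12, and skeletal actin (Acta1) ran from 2.28 to 10505 CPM.

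Per kilobase of exon, Ramp2, Ramp1 and Calcrl had higher medians than any of the peptides, while Ramp3 lay below Adm and Calcr below every peptide. Ramp2 had the highest median level over the 36 libraries, 20.8 CPM per kilobase, followed by Ramp1 at 8.14, Calcrl at 6.62 and Adm at 5.66 CPM per kilobase. Ramp3 (1.40 CPM per kilobase) and Calca (1.33) came next, then Adm2 (0.155), Calcb (0.101) and Calcr (0.0115). The length joined the exons of all transcripts of a gene. For Calca it was 1684 bases, against 994 for Calca-201 and 830 for Calca-202, so the place of Calca beside Ramp3 depends on that choice. Ramp2 exceeded Ramp1 in 32 of 36 libraries, and Adm exceeded Ramp3 in all 36. Neighbours in this order whose spreads ran into each other were Ramp1 and Calcrl (Ramp1 higher in 23 of 36), Calcrl and Adm (24 of 36), Ramp3 and Calca (15 of 36), Adm2 and Calcb (18 of 36) and Calcb and Calcr (28 of 36).

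**Figure D1:**
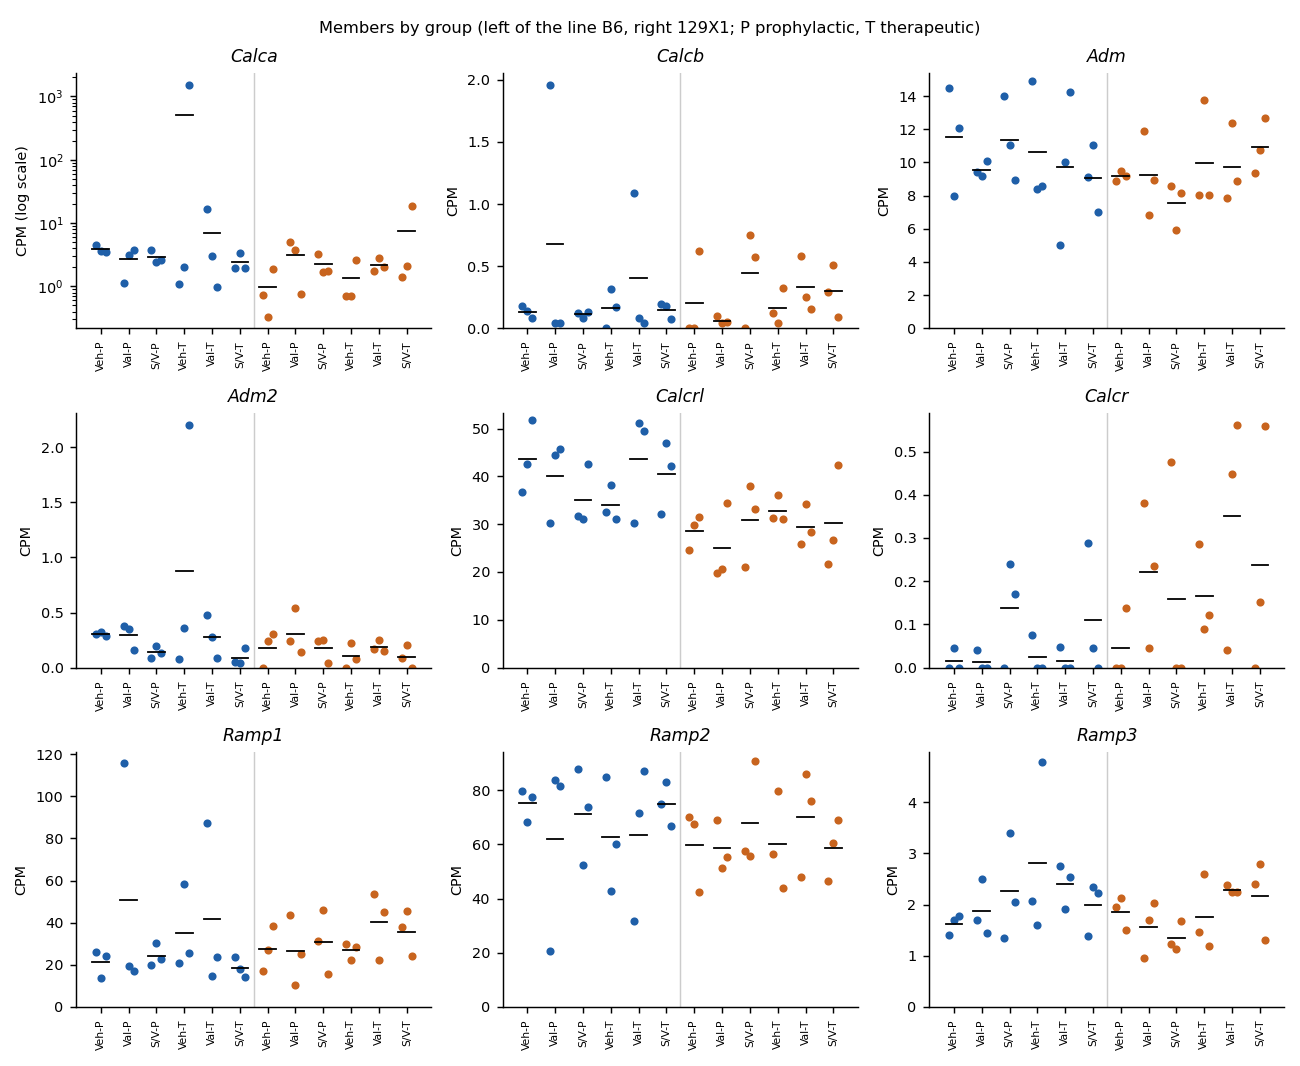
Each panel gives 1 gene in CPM (Calca on a log axis), with 1 point per library and a black bar at the mean of each group of 3; groups left of the line are B6 and those right of it 129X1 (S/V is Sac/val, P prophylactic, T therapeutic). The panels show 1 Calca library at 1527 CPM, Calcrl with a lower mean in each 129X1 group than in its B6 counterpart, Calcr near 0 in most B6 libraries, and a Ramp1 library at 116 CPM.

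Among the peptides, Adm varied least, from 5.04 to 14.9 CPM (median 9.17), with no library at 0. Calca had a median of 2.24 CPM and a range from 0.332 to 1527 CPM. Calcb was at or below 1.96 CPM (median 0.127) and at 0 in 4 libraries, and Adm2 at or below 2.21 CPM (median 0.201) and at 0 in 3, so most values of both lie near the limit of detection. On the receptor side Calcrl ran from 19.8 to 51.8 CPM (median 32.3), Ramp2 from 20.7 to 90.7 CPM (median 68.6) and Ramp3 from 0.950 to 4.79 CPM (median 1.93). Ramp1 spread more widely, from 10.4 to 116 CPM (median 24.6). Calcr never exceeded 12 counts in a library (0.562 CPM) and was at 0 in 15.

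Calca followed thyroid transcripts only in part. In the 7 libraries at or above 100 CPM of Tg, Calca was at 1527 CPM in B6 vehicle therapeutic replicate 3, which also had the highest Tg (39846 CPM). It was at 18.7 CPM in 129X1 Sac/val therapeutic replicate 3 (Tg 9287 CPM), 16.6 CPM in B6 Val therapeutic replicate 1 (Tg 4395 CPM) and 3.11 CPM in B6 Val prophylactic replicate 2 (Tg 2543 CPM). In 129X1 vehicle therapeutic replicates 2 and 3 it was at 0.716 and 2.62 CPM beside Tg of 3254 and 1292 CPM, and in 129X1 Val therapeutic replicate 3 at 2.04 CPM beside 568 CPM. Thus 3 of the 7 exceeded all of the other 29 libraries, in which Calca ran from 0.332 to 4.94 CPM (median 2.04), and the other 4 fell within that range.

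In counts, the library with 1527 CPM held 35997 Calca counts beside 939155 Tg counts. The next, 129X1 Sac/val therapeutic replicate 3, held 401 beside 199622, and 129X1 vehicle therapeutic replicate 2 held 16 beside 72684. Calca therefore had no fixed ratio to the follicle transcript. The C-cell list held Gfra4, a receptor subunit of C cells, at 27.7 CPM in the library with 1527 CPM of Calca, the highest of all 36 (median 8.35 CPM). Of the same list, the secretory granule protein Chga was at 5122 CPM there, but Chga is also made in the parathyroid and reached 9972 CPM in 129X1 vehicle prophylactic replicate 1, where Calca was at 0.744 CPM and Pth at 7644 CPM. No gene of the C-cell list other than Nkx2-1, at 0 in 25 libraries, was at 0 in any library. Of the sensory neuron markers, the sodium channel Scn10a was at or below 0.760 CPM in every library, with 2 at 0, and the heat receptor Trpv1 ran from 1.25 to 6.92 CPM, while Prdm12 and Mrgprd were at 0 in 26 and 30 libraries. The part of C cells and of nerve in the Calca values was not tested.

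**Figure D2:**
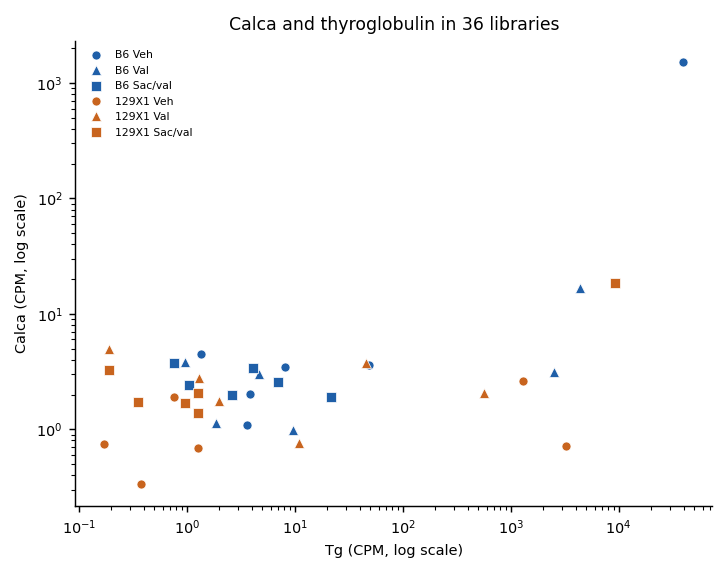
Each point is 1 library, with Tg on the horizontal and Calca on the vertical axis, both in CPM on log scales, coloured by strain and with a shape for each treatment. Calca reached 1527 CPM in the library with the highest Tg, and the 3 libraries with the most Tg had the most Calca. The others lay between 0.332 and 4.94 CPM of Calca, with Tg up to 3254 CPM.

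The strain comparison over all 6 combinations of regimen and treatment (18 against 18 libraries) found Calcrl and Calca lower and Calcr higher in 129X1. A gene was called at a Benjamini-Hochberg adjusted p under 0.05 over all tested genes in edgeR's quasi-likelihood test. That comparison called 33.8 percent of all genes tested, so 3 of 9 members is near the background. The median log2 difference (129X1 minus B6) was -0.13 over the 9 members and -0.02 over all genes tested. For none of the 9 did the libraries of the strains fall into ranges that do not overlap.

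Calcrl, the shared receptor, ran from 19.8 to 42.3 CPM (median 30.5) in 129X1 and from 30.2 to 51.8 CPM (median 40.2) in B6. Of the 129X1 libraries 9 lay below every B6 library, and the group mean was lower in 129X1 in all 6 combinations. The log2 difference was -0.42 (SE 0.11, edgeR adjusted p = 0.00299), or 1.34-fold lower. It stayed called in each of the 36 fits that left out 1 library (-0.47 to -0.38) and in each of 9 other settings (-0.51 to -0.32). Of 10 macrophage markers 6 were lower in 129X1 and none higher, beside 33.8 percent of all genes called in either direction. The summed level of the list was 728 to 4417 CPM (median 2494) in 129X1 and 748 to 7193 CPM (median 4446) in B6. Lyz2 made up a large part of these sums, with a median of 2072 CPM over all libraries. Of the 6 tested markers of lymphatic endothelium 3 were lower and none higher, with sums of 73.3 to 209 CPM (median 111) in 129X1 and 49.9 to 400 CPM (median 273) in B6, and Ccl21a of that list was at 0 in all libraries. Schwann cell markers were lower too (5 of 9, with median sums of 1153 against 1908 CPM), and 1 of 13 blood endothelium markers was lower and none higher (927 against 1216 CPM). The part of these cells in the difference was not tested, and in bulk tissue fewer cells of a type and less RNA per cell cannot be told apart.

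Calca ran from 0.332 to 18.7 CPM (median 1.82) in 129X1 and from 0.991 to 1527 CPM (median 3.06) in B6. The ranges overlapped, with 5 of the 129X1 libraries below every B6 library and 1 B6 library above every 129X1 library. The log2 difference was -1.78 (SE 0.58, edgeR adjusted p = 0.0193). Without B6 vehicle therapeutic replicate 3, the library with 1527 CPM, the Calca difference was -0.39 (adjusted p = 0.450). It was -0.57 (adjusted p = 0.175) without the 7 Tg-rich libraries (at least 100 CPM) and -1.04 (adjusted p = 0.0642) with the thyroid follicle score as a covariate, so the call rests on that 1 library.

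Calcr was at 0 in 10 of 18 B6 libraries and 5 of 18 129X1 libraries, with 22 counts summed over B6 and 76 over 129X1. The highest library had 0.288 CPM in B6 and 0.562 CPM in 129X1, and 5 of the 129X1 libraries lay above every B6 library. The mean was higher in 129X1 in all 6 combinations, and the log2 difference was 2.16 (SE 0.69, edgeR adjusted p = 0.0167), a size that depends on the prior count because single groups held as little as 1 count. The Calcr call was lost without the 7 Tg-rich libraries, though the difference was similar at 2.10. That fit left no Calcr count in B6 Val therapeutic mice and only replicate 1 of the 129X1 vehicle therapeutic mice. It therefore cannot show whether the call rests on the Tg-rich libraries. The call was also lost with the thyroid, thymus, parathyroid and skeletal muscle scores as covariates (1.19, adjusted p = 0.103). With 1 library left out, the call was lost without 129X1 vehicle prophylactic replicate 3 (1.59, adjusted p = 0.9999) and without 129X1 Sac/val prophylactic replicate 1 (1.35, adjusted p = 0.9993), and kept in the other 34 fits. Both left a group with no Calcr count. So did leaving out the 1 library with counts of B6 vehicle prophylactic, B6 Val prophylactic, B6 vehicle therapeutic or B6 Val therapeutic mice, where the difference was 2.45 to 2.58 and the call was kept. Of 10 skeletal muscle genes 2 were called higher in 129X1 and none lower, a smaller share than the 33.8 percent of all genes called, and their summed level ran from 13.2 to 37413 CPM (median 9183) in 129X1 and from 63.8 to 23259 CPM (median 3745) in B6. The part of muscle in the Calcr difference was not tested.

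The other 6 members were not called between strains. Adm differed by -0.13 (95% interval -0.40 to 0.13), Ramp2 by -0.13 (-0.45 to 0.20) and Ramp3 by -0.24 (-0.58 to 0.09). Ramp1 differed by 0.05 (-0.49 to 0.59). These intervals are narrow enough to leave out a 2-fold difference in Adm, Ramp1, Ramp2 and Ramp3, but those of Calcb (-1.29 to 1.33) and Adm2 (-1.53 to 0.24) are not.

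Under vehicle alone (6 against 6 libraries), where 13.5 percent of all genes tested were called, only Calca was called among the members. Its values were 0.332 to 2.62 CPM (median 0.730) in 129X1 and 1.09 to 1527 CPM (median 3.54) in B6, so the strains overlapped. The log2 difference of Calca was -5.24 (SE 1.15, edgeR adjusted p = 0.00284), and -1.08 (adjusted p = 0.311) without the library with 1527 CPM. Adm2 differed by -1.86 (adjusted p = 0.0850), and by -0.87 (adjusted p = 0.456) without the same library, which held the highest Adm2 of all 36 at 2.21 CPM. Adm2 was called with the blood endothelium and smooth muscle scores (-2.03, adjusted p = 0.0417) or the thymus score (-2.13, adjusted p = 0.0390) as covariates. It was also called without B6 vehicle therapeutic replicate 1 (-2.14, adjusted p = 0.0464) and without 129X1 vehicle therapeutic replicate 2 (-2.46, adjusted p = 0.0467). Calcrl differed by -0.33 (adjusted p = 0.241), and by -0.45 (adjusted p = 0.0212) with the animal number as a covariate. Calcr differed by 2.00 (adjusted p = 0.322), and by 0.28 without 129X1 vehicle prophylactic replicate 3 and 3.27 without B6 vehicle therapeutic replicate 1. Each of these left-out libraries was the only 1 of its group with a Calcr count.

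No member was called for either drug. Against vehicle, over 4 strata (12 against 12 libraries), 0 percent of all genes tested were called for Sac/val and 0 percent for Val by edgeR. The counts at an unadjusted p under 0.05 were 293 and 453 genes, and DESeq2's Wald test called 10 and 2, no member among them. Sac/val against Val likewise called 0 percent (491 genes at an unadjusted p under 0.05, and 17 by DESeq2). The median log2 difference of the members was -0.03 for Sac/val and -0.02 for Val, against 0.01 and 0.03 over all genes tested. Both comparisons use the same vehicle libraries.

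Intervals of the peptides were wide for Calca and narrower for Adm. Calca was at 0.332 to 1527 CPM (median 1.96) under vehicle, 0.755 to 16.6 CPM (median 2.90) under Val and 1.39 to 18.7 CPM (median 2.24) under Sac/val, and the 3 sets overlapped. The log2 difference of Calca from vehicle was -1.14 (95% interval -2.60 to 0.32) for Sac/val and -1.11 (-2.57 to 0.35) for Val. Without B6 vehicle therapeutic replicate 3 both turned positive, at 0.96 (unadjusted p = 0.0470, adjusted p = 0.9999) and 0.99 (unadjusted p = 0.0411), so the sign of the Calca difference is set by 1 library. Adm2, intermedin, was at 0 to 2.21 CPM (median 0.263) under vehicle, 0.0862 to 0.537 CPM (median 0.243) under Val and 0 to 0.249 CPM (median 0.106) under Sac/val. Its difference from vehicle was -1.11 for Sac/val (unadjusted p = 0.0492, adjusted p = 0.9999), and -0.61 without the same library. Without the 7 Tg-rich libraries the Adm2 difference was 0.60. That fit left only replicate 1 of the 129X1 vehicle therapeutic mice, at 0 CPM of Adm2. It therefore cannot show whether the direction rests on the Tg-rich libraries. Adm was at 7.97 to 14.9 CPM (median 9.02) under vehicle, 5.04 to 14.2 CPM (median 9.29) under Val and 5.94 to 14.0 CPM (median 9.23) under Sac/val, and the 3 ranges overlapped over most of their length. Its difference was -0.10 for Sac/val (-0.42 to 0.22) and -0.11 for Val (-0.43 to 0.22). Calcb, with most values near the limit of detection, differed by 0.35 under Sac/val and 0.70 under Val.

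On the receptor side, Calcrl was at 24.6 to 51.8 CPM (median 32.1) under vehicle, 19.8 to 51.1 CPM (median 32.2) under Val and 21.1 to 47.0 CPM (median 32.6) under Sac/val. Ramp2 was at 42.3 to 84.8 CPM (median 67.9) under vehicle, 20.7 to 87.1 CPM (median 70.3) under Val and 46.5 to 90.7 CPM (median 67.8) under Sac/val. The treatments overlapped over nearly the whole range of both genes. Calcrl differed from vehicle by -0.02 under Sac/val (-0.28 to 0.25) and -0.03 under Val (-0.30 to 0.24). Ramp2 differed by 0.08 (-0.31 to 0.48) and -0.02 (-0.41 to 0.38), and Ramp3 by -0.05 (-0.45 to 0.36) and 0.03 (-0.38 to 0.44). The intervals of these 3 genes leave out a 2-fold rise or fall in either comparison. Ramp1 differed by -0.03 (-0.69 to 0.63) and 0.51 (-0.15 to 1.18). Its highest Val library, B6 Val prophylactic replicate 1 at 116 CPM, also had the highest Rag1 of all 36 libraries, 1591 CPM. Calcr differed by 1.64 under Sac/val (-0.02 to 3.30) and 0.56 under Val (-1.95 to 3.07), with at most 12 counts in a library. Leaving out 1 library moved Calcr between 0.42 (without 129X1 Sac/val prophylactic replicate 1) and 2.5 (without 129X1 vehicle prophylactic replicate 3) under Sac/val, and between 0.087 and 1.42 under Val. Both of the named fits left a group with no Calcr count, which limits these sizes.

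**Figure D3:**
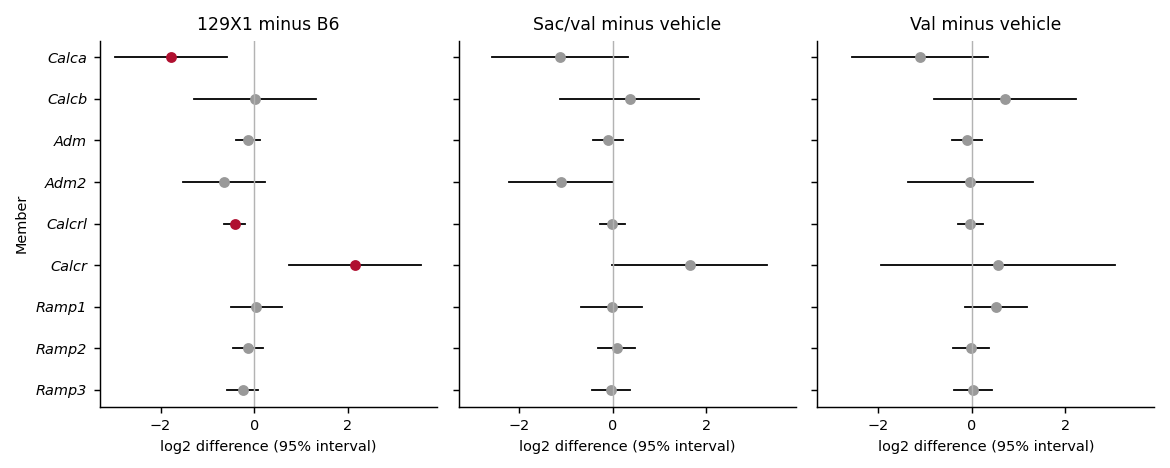
Points are log2 differences of the 9 members with 95% intervals from edgeR, for 129X1 minus B6, Sac/val minus vehicle and Val minus vehicle; red marks a gene called at an adjusted p under 0.05. Calca, Calcrl and Calcr are called between strains, and every interval of the receptor genes Calcrl, Ramp2 and Ramp3 in the drug panels spans 0.

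No member was called between regimens, in the interactions of either drug with strain or regimen, or in any of the 8 comparisons of a drug with vehicle within a stratum. Each of these comparisons called 0 percent of all genes tested by edgeR, with 599 genes at an unadjusted p under 0.05 for regimen and 101 to 1952 in the others, while DESeq2 called 0 to 48 genes and no member. The smallest unadjusted p among the members belonged to Calca. In B6 therapeutic mice it was at 1.09, 2.04 and 1527 CPM under vehicle, 16.6, 3.02 and 0.991 CPM under Val, and 1.92, 3.39 and 1.98 CPM under Sac/val, so that a single mouse stands apart. The log2 difference was -7.71 for Sac/val (adjusted p = 0.951), and 0.63 without that mouse. In the interactions with strain, Calca differed by 5.85 for Sac/val (adjusted p = 0.952) and 4.53 for Val (adjusted p = 0.633), and by 1.69 and 0.37 without it. For regimen Calca was 1.62 higher in therapeutic libraries (unadjusted p = 0.0096), and 0.24 without it. Ramp3 was 0.35 higher in the therapeutic libraries (95% interval 0.016 to 0.68), with an adjusted p of 1 by edgeR.

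Across the 36 libraries, several members moved with the marker genes of particular tissues. A tissue score was the mean log2 CPM of a marker list, and 9 members were set against 13 lists, 117 pairs in all, with 100000 permutations for each Pearson's r and Spearman's rho. Of these, 27 passed an adjusted p under 0.05 by r and 27 by rho, 24 by both, and 22 of the 24 kept their sign in every alternative, among them deviations from group means and each strain alone. Libraries of a group differ in tissue content, so these relations describe samples and not single cells. The exceptions were Ramp1 with lymphatic endothelium (r = -0.52) and with macrophage (r = -0.50), which were 0.058 and 0.10 within 129X1. A kept sign is a weaker demand than passing the threshold. Within 1 strain (18 libraries each), 26 pairs passed by r in B6 and 4 in 129X1. The widest gap between neighbouring libraries on any score took 42.7 percent of its range and set apart 1 library (blood endothelium), and that on the thymus score, 14.9 percent, lay between 20 and 16 libraries.

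Ramp2, the adrenomedullin receptor partner, followed blood endothelium (r = 0.93, rho = 0.86, adjusted p = 0.000117 and 0.000195, the smallest that the permutations allow). Without the 2 libraries farthest from the median score r was 0.88, and it was 0.98 within B6 and 0.81 within 129X1. Ramp2 also rose with lymphatic endothelium (r = 0.70), Schwann cell (r = 0.70), macrophage (r = 0.61) and contractile smooth muscle markers (r = 0.58) and fell with the thymus score (r = -0.69). The 2 libraries with the lowest Ramp2, B6 Val prophylactic replicate 1 (20.7 CPM) and B6 Val therapeutic replicate 1 (31.8 CPM), had the highest Rag1 of all 36 (1591 and 869 CPM).

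Ramp1, the CGRP receptor partner, ran the other way. It rose with the thymus score (r = 0.78, rho = 0.73, adjusted p = 0.000117 and 0.000195) and fell with blood endothelium (r = -0.81, rho = -0.71, with the same adjusted p values). Within strains the relation of Ramp1 to thymus was r = 0.89 in B6 and 0.67 in 129X1, and 0.74 without the 2 farthest libraries. The ratio of Ramp1 to Ramp2, each per kilobase, ran from 0.187 to 6.11 (median 0.370). It exceeded 1 in 4 libraries, all with Rag1 at or above 375 CPM, and stayed at or below 0.695 in the 20 libraries with less than 10 CPM of Rag1. The largest ratio belonged to B6 Val prophylactic replicate 1, with Ramp1 at 116 CPM and Ramp2 at 20.7 CPM.

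**Figure D4:**
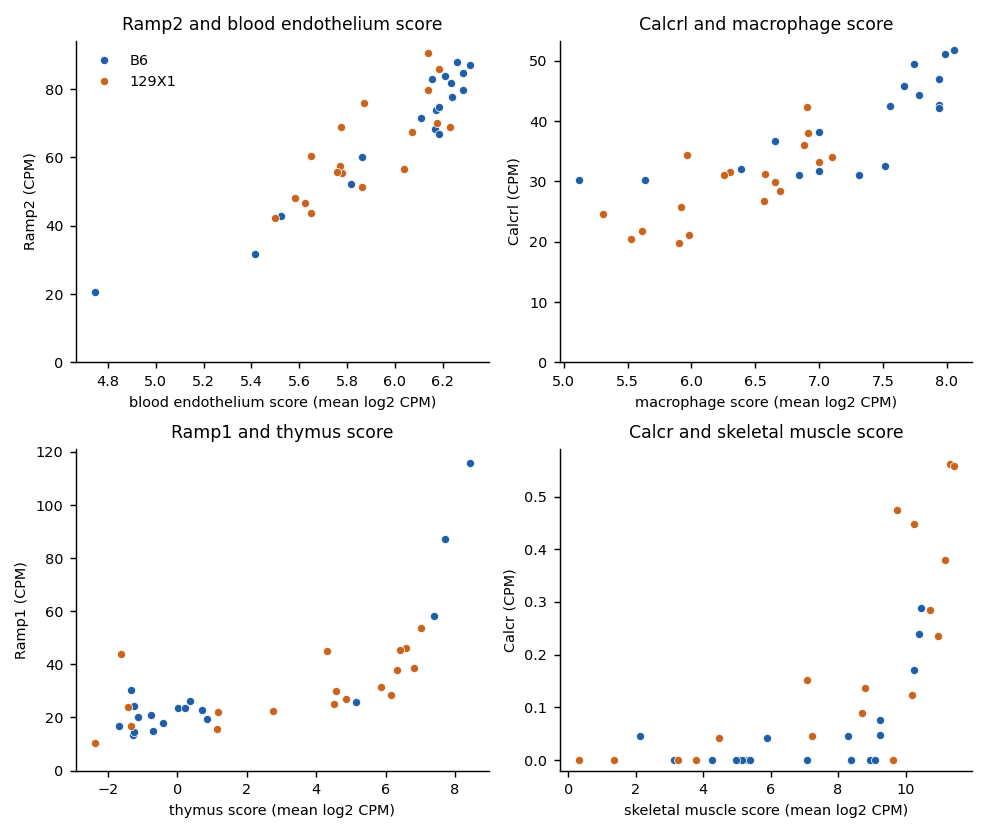
Points are libraries coloured by strain, with the tissue score (mean log2 CPM) on the horizontal axis and the gene in CPM on the vertical axis; r was computed on log2 CPM. Ramp2 climbs with the blood endothelium score (r = 0.93), Calcrl with macrophage (r = 0.83), Ramp1 with thymus (r = 0.78) and Calcr with skeletal muscle (r = 0.72).

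Calcrl followed macrophage (r = 0.83, rho = 0.84) and lymphatic endothelium (r = 0.78, rho = 0.81), and blood endothelium with smaller coefficients (r = 0.47, rho = 0.58). The macrophage relation of Calcrl was r = 0.78 within B6 and 0.77 within 129X1, and 0.85 without the 2 farthest libraries. The adjusted p values were 0.000117 for r and 0.000195 for rho with macrophage and lymphatic endothelium, and 0.0206 and 0.00259 with blood endothelium. Calcrl fell with the adipocyte score (r = -0.52), with a smaller coefficient on deviations from group means (r = -0.26). The difference between the correlations was not tested. Calcr was related to 1 list, skeletal muscle (r = 0.72, rho = 0.79, adjusted p = 0.000117 and 0.000195), with r = 0.60 in B6 and 0.81 in 129X1. Ramp3 passed with none of the 13 lists.

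Among the peptides, Adm rose with contractile smooth muscle (r = 0.58, adjusted p = 0.00156), lymphatic endothelium (r = 0.52, adjusted p = 0.00831) and blood endothelium (r = 0.45, adjusted p = 0.0294). Without the 2 farthest libraries these were 0.57, 0.45 and 0.47. Calcb rose with thymus (r = 0.64, rho = 0.63, adjusted p = 0.00027 and 0.00052) and fell with blood endothelium (r = -0.70). Its highest library, at 1.96 CPM, was the one with the most Rag1. Adm2 passed with no list by r, and by rho with the adipocyte list (rho = -0.48, adjusted p = 0.0200).

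Calca rose with the thyroid follicle score (r = 0.68, rho = 0.50, adjusted p = 0.000919 and 0.0114). Leaving out the 2 farthest libraries gave r = 0.29, so the size of r rests on them, and rho was not computed there. On deviations from group means r was 0.76. It was 0.84 within B6, which held the library with 1527 CPM, and 0.41 within 129X1. With the C-cell score the relation of Calca was r = 0.50 (adjusted p = 0.0281) and rho = 0.40 (adjusted p = 0.0623), and r = 0.25 without the 2 farthest libraries. With the sensory neuron score r was 0.15 (adjusted p = 0.636) and rho 0.40 (adjusted p = 0.0623). With sympathetic neuron and glomus cell genes Calca passed by rho alone (rho = 0.47, adjusted p = 0.0200, against r = 0.17).

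**Figure D5:**
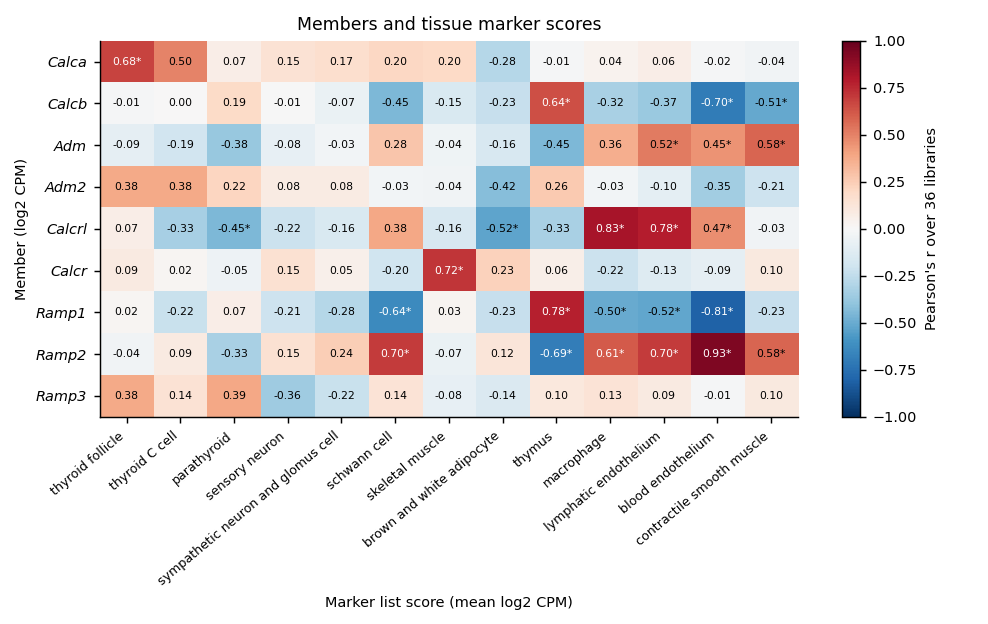
The colour of each cell gives Pearson's r over 36 libraries between a member (log2 CPM) and the mean log2 CPM of a marker list; a star marks pairs with both adjusted p values under 0.05. Ramp2 and Ramp1 show opposite colours for blood endothelium (0.93 and -0.81) and thymus (-0.69 and 0.78), and Ramp3 has no star.

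The genes most like each member across the 36 libraries were found by Spearman's rho among 12494 genes with a mean at or above 5 CPM. Ramp2 was nearest to the endothelial adhesion molecule Esam (rho = 0.94), which is itself in the blood endothelium list, followed by Ecm1 and Adamtsl4 (both 0.94). Calcrl was nearest to Ccdc88a (0.91), Trps1 (0.91) and Tmem168 (0.89), Ramp1 to Rcsd1 (0.88), Epc1 (0.86) and Fam78a (0.86), and Calcr to Slc25a12 (0.85), Itgb1bp2 (0.84) and Ccdc43 (0.82). Calca was nearest to Scnn1b, a subunit of the epithelial sodium channel (0.81), Slc5a5, the thyroid iodide transporter (0.75), and 1700025G04Rik (0.70). For Adm the nearest were the transcription factor Gata6 (0.75), the bone morphogenetic protein Bmp2 (0.74) and Foxp2 (0.73). Weaker neighbours were found for Calcb (Med26, Pdcl and Plxdc1, all 0.67), Adm2 (Chmp1b at 0.69, Snn at 0.67 and Hnrnpc at 0.65) and Ramp3 (Zfp513 at 0.67, Lsr at 0.64 and Trp53rka at 0.60).

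Of the genes that process and break down the peptides, 2 of 15 were called higher and 2 lower in 129X1 over the 6 combinations, no larger a share than the 33.8 percent of all genes called. Mme, which encodes neprilysin, the target of sacubitril, was higher in 129X1 (log2 difference 0.97, SE 0.18, edgeR adjusted p = 0.000136), and so was its relative Mmel1 (2.99, SE 0.48, adjusted p = 2.42e-05), at a mean of only 0.461 CPM. Endothelin converting enzyme Ece1 was among the lower genes (-0.33, SE 0.09, adjusted p = 0.00501). The list's median difference was -0.23, against -0.02 over all genes tested. Mme differed from vehicle by 0.10 under Sac/val (95% interval -0.34 to 0.55) and -0.24 under Val (-0.69 to 0.20), and was not called.

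Of 28 genes of receptor coupling and signalling, 4 were higher and 7 lower in 129X1, near the 33.8 percent of all genes called, with a median of -0.11. Lower were the receptor kinase Grk5 (-0.74, adjusted p = 5.21e-06) and the arrestins Arrb2 (-0.53, adjusted p = 0.00108) and Arrb1 (-0.51, adjusted p = 0.00211), which quench receptors of this class. Higher were the protein kinase A subunits Prkaca (0.52, adjusted p = 0.000646) and Prkar2b (0.76, adjusted p = 0.00279) and the adenylyl cyclase Adcy3 (0.55, adjusted p = 0.00336), which lie downstream of them. Of 15 hypoxia response genes, a group to which Adm is known to belong, 7 were higher and 1 lower, beside the 33.8 percent of all genes called, with a median of 0.38, while Adm itself was not called. Hexokinase Hk2 (1.01), phosphoglycerate kinase Pgk1 (0.41) and the aldolase Aldoa (0.87) were higher, with edgeR adjusted p values of 0.000172, 0.00156 and 0.0016, and Ndrg1 was lower (-0.40, adjusted p = 0.0237). Of 10 adipocyte markers 7 were higher too (against the same 33.8 percent, with sums of 7049 to 19663 CPM in 129X1 and 2906 to 14539 CPM in B6), and so were the 2 skeletal muscle genes above. Their part in these list counts was not tested. No gene of the 3 lists was called under either drug.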

How the data were processed

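RNA was measured in 36 ligated left carotid arteries, 3 mice in each of 12 groups of strain, regimen and treatment taken from the sample labels. Per the labels' protocols, RNA was extracted with Trizol and a column kit and libraries were made with TruSeq Stranded mRNA and sequenced on a HiSeq. The authors deposited whole-number counts per gene symbol. Per the submitters' processing notes, Trimmomatic 0.36, STAR 2.5.2b and featureCounts of Subread 1.5.0p3 were used with GRCm38. Which annotation the counting used, and whether it used strand, is not given in the sources used here.

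From the counts, edgeR 4.0.16 (R 4.3.3) fitted 12 group means over all 36 libraries with TMM normalization, after edgeR's filter on low counts kept 18628 of 49568 symbols. Its quasi-likelihood test with Benjamini-Hochberg adjustment over all tested genes was used at 0.05, with 24 residual degrees of freedom. The SE of a log2 difference was derived from the F statistic, and intervals are 95%. CPM used TMM-scaled totals, and scores used a prior count of 2. Levels per kilobase used GENCODE M21 exon lengths, joined over all transcripts of a gene. Correlations used 100000 two-sided permutations. DESeq2 1.42.0, other size factors, no filter on low counts, tissue scores as covariates and left-out libraries were alternatives. On simulated counts the strain test called 74 percent of 50 genes changed by 1 on the log2 scale, and the test of Sac/val against vehicle called 66 percent. Within 1 stratum, B6 therapeutic mice, the test of Sac/val against vehicle called only 20 percent.

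Total counts of 18962081 to 28967579 per library set the precision of low genes. No 2 libraries were identical. Each library is a separate mouse. The 9 members and all gene lists were chosen with earlier results of these data known. Named genes were the 9 members, up to 3 genes in each direction of each pathway list by adjusted p, and the 3 genes most like each member. Beside them, genes that show tissue content were named. One gene of the peptide processing list is counted but not reported here by name.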

Additional observations from a re-analysis of the deposited data

Results flagged for a closer look

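In 5 of 18 sets of 6 vehicle libraries of 1 strain (9 genes in 2 strains), 1 library lay farther from its nearest neighbour than Dixon's 95% critical value allows. Chance passes that limit in about 1 of 20 sets of normally distributed values. The values were CPM without a log, and the same libraries recur across genes, so that rate need not hold here. In B6, 3 of the 5 outlying values came from the same library, vehicle therapeutic replicate 3, the one with the most Tg. It had Calca at 1527 CPM (nearest library 4.5 CPM), Adm2 at 2.21 CPM (nearest 0.36 CPM) and Ramp3 at 4.79 CPM (nearest 2.06 CPM). Ramp1 was at 58.2 CPM in B6 vehicle therapeutic replicate 2 (nearest 26.2 CPM), which had Rag1 at 756 CPM. Adm was at 13.8 CPM in 129X1 vehicle therapeutic replicate 2 (nearest 9.49 CPM), which had Tg at 3254 CPM.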

How the results depend on the processing

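Among the members, Calcrl between strains was called in all 36 fits with 1 library left out and in all 9 other settings. No member was called for a drug, the regimen or an interaction in any setting run. Of the 3 members called between strains over 6 combinations, 1 was called with the thyroid, thymus, parathyroid and skeletal muscle scores as covariates and 1 without the 7 Tg-rich libraries (at least 100 CPM). Under vehicle, where 1 member was called, 2 were called with the thymus score, 2 with the blood endothelium and smooth muscle scores and 2 with the animal number in the labels as a covariate. None (0) were called by DESeq2, without the Tg-rich libraries or without those at or above 10 CPM of Rag1, and left-out libraries gave 0 to 2. DESeq2 gave Calca no adjusted p. Of the correlations, 4 pairs passed by r within 129X1 and 26 within B6, each with 18 libraries, against 27 over all 36. The counts of all genes called under vehicle were 2522 by edgeR, 715 without the Rag1-rich libraries, 958 without the Tg-rich libraries, and 4099 with the blood endothelium and smooth muscle scores. No paired analysis was possible because replicate numbers were given in accession order and pair no mice. The Rag1 alternative left a group empty in the strain comparison over 6 combinations, the Val comparisons and the regimen comparison, so it was not run there. Calcb, Adm2 and Calcr had at most 52 counts in a library, which limits their precision. The cause of the changes was not tested.

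Of 45 pairs of member and comparison, 14 kept their sign in every fit and 29 changed it in a setting other than a left-out library, with no adjusted p under 0.05 after a change (smallest 0.124). These log2 differences follow, with the main value in parentheses, the wall scores being blood endothelium and smooth muscle and the organ scores the 4 named above. For strain over 6 combinations, Calcb (0.020) became -0.0014 by DESeq2, -0.0044 with the thyroid score, -0.19 with the wall scores, -0.59 with the thymus score and -0.72 with the 4 organ scores. Adm (-0.13) became 0.0031 with the thymus score and 0.051 with the 4 organ scores. Ramp1 (0.046) became -0.055 with the wall scores, -0.24 with the thymus score and -0.28 with the 4 organ scores. Ramp2 (-0.13) became 0.10 with the wall scores, 0.17 with the thymus score and 0.23 with the 4 organ scores. Left-out libraries moved Calcb between -0.88 and 0.64 and Ramp1 between -0.049 and 0.27. For strain under vehicle, Calcb (0.39) became -0.56 with the wall scores, -0.69 with the thymus score, -0.75 with the 4 organ scores and -0.72 without the Rag1-rich libraries. Calcr (2.00) became -0.82 without the Rag1-rich libraries, a fit with no count of Calcb or Calcr in 129X1 vehicle prophylactic mice. Ramp1 (-0.0081) became 0.017 with DESeq2's size factors, 0.017 without the filter, 0.017 by DESeq2 and 0.16 with the animal number. Ramp2 (-0.20) became 0.043 with the thymus score and 0.084 with the 4 organ scores. Ramp3 (-0.25) became 0.30 without the Rag1-rich libraries. Left-out libraries moved Calcb between -2.31 and 0.80, Ramp1 between -0.17 and 0.25 and Ramp3 between -0.44 and 0.064. For Sac/val against vehicle, Calca (-1.14) became 0.31 with the thyroid score, 0.67 without the Tg-rich libraries, 0.39 with the 4 organ scores and 1.66 without the Rag1-rich libraries. Adm2 (-1.11) became 0.60 without the Tg-rich libraries, a fit with no Adm2 count in 129X1 vehicle therapeutic mice. Calcrl (-0.019) became 0.015 with the animal number and 0.17 without the Rag1-rich libraries. Ramp1 (-0.030) became 0.069 with the wall scores, 0.15 with the thymus score, 0.17 with the 4 organ scores and 0.0079 without the Rag1-rich libraries. Ramp2 (0.082) became -0.023 without the Rag1-rich libraries. Ramp3 (-0.045) became 0.099 with the thyroid score, 0.24 without the Tg-rich libraries and 0.031 with the 4 organ scores. Left-out libraries moved Calca between -1.66 and 0.96, Calcrl between -0.098 and 0.034, Ramp1 between -0.13 and 0.10 and Ramp3 between -0.15 and 0.11. For Val against vehicle, Calca (-1.11) became 0.76 without the Tg-rich libraries and 0.029 with the 4 organ scores. Calcb (0.70) became -0.23 with the wall scores. Adm (-0.11) became 0.037 without the Tg-rich libraries. Adm2 (-0.036) became 0.23 with the thyroid score, 0.086 with the animal number, 0.055 with the thymus score and 0.30 with the 4 organ scores. It became 1.38 without the Tg-rich libraries, again with no Adm2 count in 129X1 vehicle therapeutic mice. Calcrl (-0.030) became 0.0091 without the Tg-rich libraries and 0.024 with the animal number. Calcr (0.56) became -0.25 without the Tg-rich libraries, a fit with no Calcr count in B6 Val therapeutic mice. Ramp2 (-0.017) became 0.13 with the wall scores. Left-out libraries moved Calca between -1.55 and 0.99, Calcb between -0.26 and 2.05, Adm2 between -0.21 and 0.46, Calcrl between -0.11 and 0.025, Ramp2 between -0.091 and 0.098 and Ramp3 between -0.053 and 0.18. For Sac/val against Val, Calca (-0.030) became 0.33 with the thyroid score and 0.36 with the 4 organ scores. Calcb (-0.35) became 0.97 with the wall scores, 0.19 without the Tg-rich libraries, 0.56 with the thymus score and 0.52 with the 4 organ scores. Adm (0.0056) became -0.015 with DESeq2's size factors, -0.016 by DESeq2, -0.0016 on the compared libraries, -0.0097 with the thyroid score, -0.024 with the wall scores, -0.12 without the Tg-rich libraries, -0.022 with the thymus score and -0.034 with the 4 organ scores. Calcrl (0.011) became -0.011 with DESeq2's size factors, -0.010 by DESeq2, -0.096 with the wall scores, -0.11 without the Tg-rich libraries, -0.0090 with the animal number, -0.0066 with the thymus score and -0.0017 with the 4 organ scores. Ramp1 (-0.54) became 0.051 with the wall scores. Ramp2 (0.099) became -0.0097 with the wall scores. Ramp3 (-0.073) became 0.021 with the thyroid score and 0.084 without the Tg-rich libraries. Left-out libraries moved Calca between -0.55 and 0.41, Calcb between -0.50 and 0.63, Adm between -0.072 and 0.100, Calcrl between -0.068 and 0.088, Calcr between -0.14 and 1.55 and Ramp2 between -0.019 and 0.17.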
